A study of Homo sapiens with 18 samples.

Results

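The genes described here encode the 5 subunits of the Ragulator complex (LAMTOR1, LAMTOR2, LAMTOR3, LAMTOR4 and LAMTOR5), the Rag GTPase RagA (RRAGA), and 3 components of mechanistic target of rapamycin complex 1 (mTORC1), namely the mTOR kinase (MTOR), Raptor (RPTOR) and mLST8 (MLST8). They were chosen by gene name and make up 9 of the 20802 genes that the count lists hold. RKO cells, an established line from a human colorectal carcinoma, were transfected with 30 nM siRNA and collected 72 h later. Each of 6 siRNAs gave 3 replicates: siCtrl#1 and siCtrl#2, which are nontargeting, and 4 called on-target, which are siTsg101#1 and siTsg101#2 against TSG101 and siVps28#1 and siVps28#2 against VPS28. All 6 groups were transfected in the same way, and there was no untransfected group and no other cell line. The labels give the replicate number as the batch, and the study describes the replicates as independent experiments, so that the p-values measure the spread between experiments in this 1 line. An AmpliSeq panel was used, in which each targeted transcript is read from a short amplicon, and the values are counts of reads per gene. Levels are given as counts scaled by library size after TMM normalization (CPM), and they were compared between groups but not between genes, because each gene has its own amplicon.

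Ragulator is a scaffold on the lysosomal surface. LAMTOR1 is anchored in the membrane by lipids and wraps around a LAMTOR2-LAMTOR3 pair and a LAMTOR4-LAMTOR5 pair, and the whole binds a Rag GTPase dimer in which RagA or RagB is joined to RagC or RagD. When amino acids are plentiful the Rag dimer holds mTORC1 at the lysosome through Raptor, and the GTPase Rheb switches the kinase on there. Substrates of mTORC1 include TFEB and TFE3, transcription factors for lysosomal genes, which the Rag GTPases also bring to the lysosome. Tsg101 and Vps28 are subunits of ESCRT-I, a complex that sorts ubiquitinated membrane proteins towards degradation in lysosomes, and the comparisons below ask whether mRNAs of the machinery that senses nutrients at the lysosome changed when ESCRT-I was depleted.

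Libraries held from 2561790 to 7466916 reads assigned to genes, and 10246 genes with more than 100 counts in all and no noncoding type were tested. On the log2 scale TSG101 changed by -4.85 with siTsg101#1 and by -5.11 with siTsg101#2, and VPS28 by -4.15 with siVps28#1 and by -4.07 with siVps28#2 (edgeR, adjusted p from 2.22e-11 to 1.61e-09). The epithelial markers EPCAM, KRT8 and KRT18 and the intestinal factor CDX2 were detected, whereas CDH1, CEACAM5 and LGR5 had no count and KRT19, KRT20, CDX1 and VIL1 had at most 6 in all 18 libraries together. Of 9 markers of other cell types 6 had 10 counts or fewer in all, among them PTPRC, CD3E, DCN and COL1A2 at 0. VIM was at 17.3 to 64.5 CPM in the 18 libraries, and COL1A1 had 50 counts in all. The list's summed level ranged from 573 to 1093 CPM in the control libraries and from 716 to 1703 CPM in the on-target libraries. It came mostly from CD68, a lysosomal glycoprotein that is not restricted to macrophages. The part of this list in the changes described below was not tested. In RNA from whole cultures, fewer cells with a transcript and less transcript per cell cannot be told apart.

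All 9 genes had 1 target on the panel and passed the filter, with 81 to 1064 counts per library. LAMTOR3 was the least even of them across the 18 libraries, with a coefficient of variation of 26.5%, and LAMTOR1 the most even, with 12.4%. Between the 3 replicates of a group the coefficient of variation had a median of 14.9% over the 54 combinations of gene and group. In the GRCh37 annotation LAMTOR3 (NM_021970) lies on the minus strand of chromosome 4 from 100799493 to 100815585 and has 7 exons in its reference transcript. MTOR (NM_004958) lies on the minus strand of chromosome 1 from 11166592 to 11322613 with 58 exons. RRAGA (NM_006570) is a single-exon gene on chromosome 9 from 19049425 to 19051023. RPTOR (NM_020761) has 34 exons on chromosome 17 from 78518619 to 78940171. No exon of LAMTOR1, LAMTOR2, LAMTOR3 or RRAGA overlaps an exon of another annotated gene. LAMTOR4 shares 356 exonic bases with TRAPPC14 on the other strand, LAMTOR5 shares 418 with LAMTOR5-AS1, MLST8 shares 201 with BRICD5, and MTOR shares 220 with MTOR-AS1 and 151 with ANGPTL7. RPTOR shares 60 with an unnamed protein-coding gene of the same strand and 57, 71 and 133 with 3 long noncoding RNAs on the other strand. The strand setting of the counting is not given in the sources used here, so that reads from these partners could not be separated from their own, and the amplicon positions were not analysed here.

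**Figure D1:**
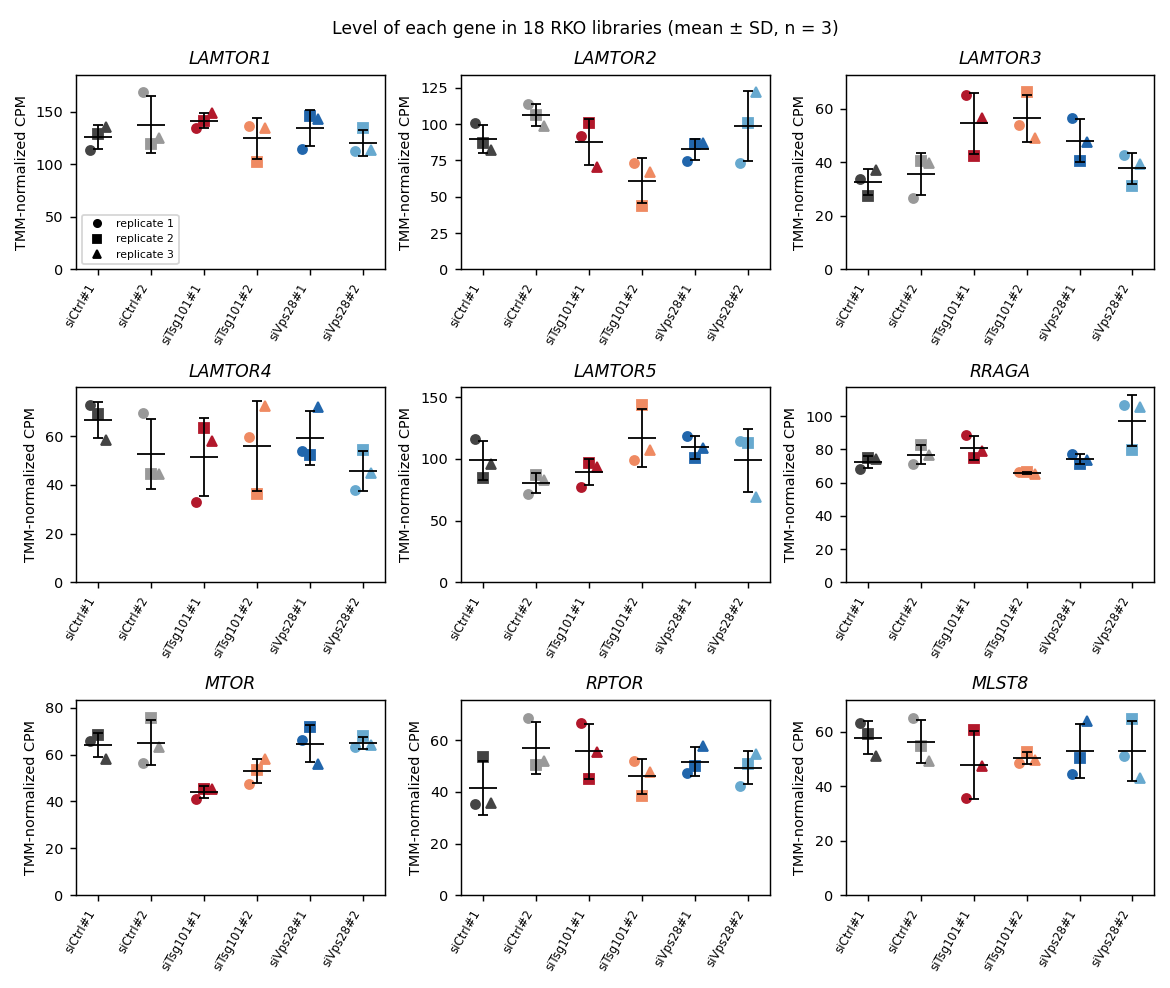
TMM-normalized CPM (vertical axis, from 0) of each of the 9 genes in the 6 siRNA groups (horizontal axis). Points are the 18 libraries, with the symbol giving the replicate number, and the black bar and whiskers are the mean and SD of 3 libraries. LAMTOR3 sits highest in the siTsg101 groups and MTOR lowest, whereas the other 7 genes show groups that largely overlap. Among these, the siTsg101#2 libraries of LAMTOR2 and RRAGA all lie below every control library, and the share of all genes with such a gap is not given.

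The mean of the 4 on-target siRNAs was compared with siCtrl#1, the reference used in the study's methods. This is an average over both depletions, and a change in a single depletion can also move it. LAMTOR3 rose, by 1.47-fold, and none of the other 8 genes passed the test in either direction. A gene passed when its adjusted p-value was under 0.05 by edgeR's quasi-likelihood test with Benjamini-Hochberg adjustment over all 10246 genes. The count of 1 of 9 compares with 23.7% of all genes tested, of which 12.0% were higher and 11.6% lower in the 4 siRNAs. With at least 1.5-fold required as well, 0 of the 9 genes passed, beside 8.4% of all genes that were higher and 6.57% that were lower. The median absolute log2 fold change of the 9 genes was 0.18 and that of all genes 0.27.

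LAMTOR3, also known as MP1, forms a dimer with LAMTOR2 and was described as a scaffold of MEK and ERK. Its level was 33.9, 27.4 and 37.0 CPM in siCtrl#1 replicates 1, 2 and 3, and 26.7, 40.5 and 39.8 CPM in those of siCtrl#2. It was 64.9, 42.3 and 56.4 CPM with siTsg101#1 and 54.1, 66.1 and 48.8 CPM with siTsg101#2. It was 56.3, 40.4 and 47.5 CPM with siVps28#1 and 42.7, 31.1 and 39.3 CPM with siVps28#2. All 6 siTsg101 libraries were above the highest control library, whereas 3 of the 6 siVps28 libraries were, so that the 12 on-target libraries overlapped the 6 controls. The same held for the other 8 genes, and 3.16% of all genes tested had no overlap between on-target and control libraries. In order of their means the groups ran from siTsg101#2 (56.3 ± 8.84 CPM, SD, n = 3) through siTsg101#1, siVps28#1, siVps28#2 and siCtrl#2 to siCtrl#1 (32.7 ± 4.90 CPM), and each group overlapped its neighbour in that order.

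The log2 fold change of LAMTOR3 in the mean of the 4 siRNAs was 0.56 (SE 0.17, 95% interval 0.21 to 0.90, edgeR adjusted p = 0.0172). Within replicate numbers 1, 2 and 3 the difference was 0.67, 0.66 and 0.36 on the log2 scale, higher in each. Relative to the mean of both nontargeting siRNAs it was 0.50 (SE 0.13, edgeR adjusted p = 0.00471), where again 1 of 9 genes passed beside 28.8% of all genes. The call was lost relative to siCtrl#2 alone (0.44, edgeR adjusted p = 0.0717), without siCtrl#1 replicate 1 (0.58, adjusted p = 0.0578) and without siCtrl#1 replicate 2 (0.45, adjusted p = 0.119).

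For the other 8 genes the differences were small and their direction was mixed. Among the scaffold subunits, the log2 fold change in the mean of the 4 siRNAs was 0.04 for LAMTOR1, -0.15 for LAMTOR2, -0.33 for LAMTOR4 and 0.06 for LAMTOR5. It was 0.12 for RRAGA, -0.19 for MTOR, 0.29 for RPTOR and -0.18 for MLST8, a WD-repeat protein that binds the kinase domain of mTOR. The edgeR adjusted p of these 8 ranged from 0.189 for RPTOR to 0.842 for LAMTOR1. A p that misses the threshold does not show that a level was the same, and the intervals say how much change these libraries leave room for. The 95% interval lay within 1.5-fold in either direction for 6 genes, LAMTOR1, LAMTOR2, LAMTOR5, RRAGA, MTOR and MLST8. For LAMTOR4 it reached down to -0.72 and for RPTOR up to 0.62, past the log2 of 1.5-fold, so that a change of this size was not excluded for these 2 genes. Relative to the mean of both nontargeting siRNAs all 8 intervals lay within 1.5-fold.

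**Figure D2:**
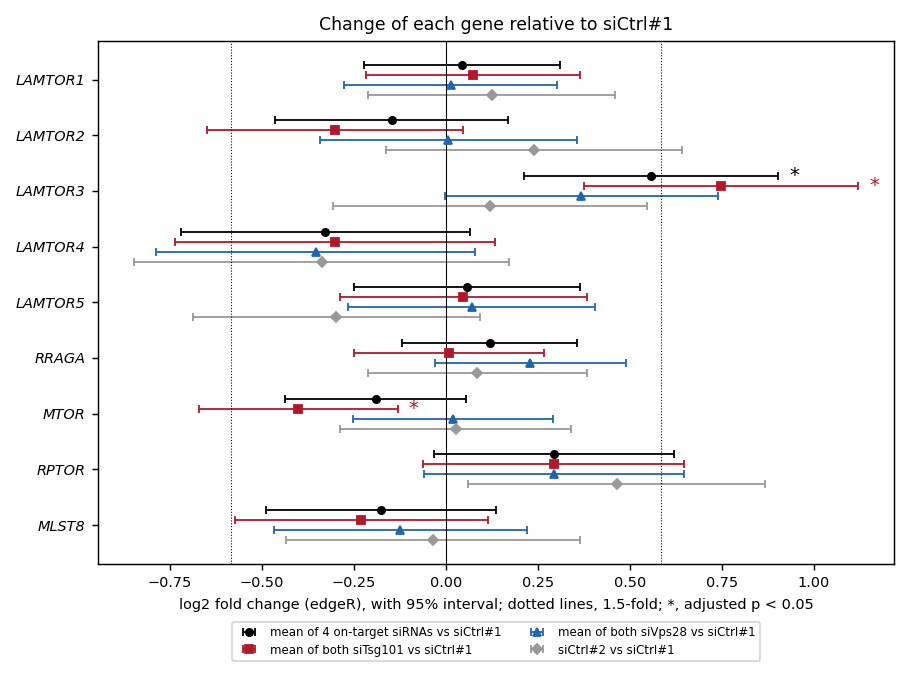
Log2 fold change (horizontal axis) of the 9 genes (rows) relative to siCtrl#1 for the mean of the 4 on-target siRNAs, both siTsg101, both siVps28 and siCtrl#2, with 95% intervals from the edgeR fit and dotted lines at 1.5-fold. Asterisks mark an adjusted p under 0.05: LAMTOR3 at 0.56 in the mean of the 4 and 0.75 with siTsg101, and MTOR at -0.40 with siTsg101.

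RPTOR, the subunit through which mTORC1 recognizes its substrates and the Rag dimer, depended on which nontargeting siRNA it was measured against. Its level was 35.2, 53.5 and 35.8 CPM in siCtrl#1 replicates 1, 2 and 3, and 68.6, 50.4 and 51.8 CPM in those of siCtrl#2. In the 12 on-target libraries the lowest level was 38.4, the median 50.4 and the highest 66.5 CPM, all within the range of the controls. The difference of the on-target mean from siCtrl#1 was 0.29 on the log2 scale, and from the mean of both nontargeting siRNAs it was 0.06 (95% interval -0.19 to 0.31). Between siCtrl#2 and siCtrl#1 it was 0.46 (SE 0.20, edgeR unadjusted p = 0.0261, adjusted p = 0.262). In that comparison 0 of the 9 genes passed with edgeR and 0 with DESeq2, RPTOR alone had an unadjusted p under 0.05, and 2.13% of all genes passed.

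Tsg101 depletion was then compared with siCtrl#1 as the mean of both siTsg101 siRNAs. LAMTOR3 rose by 0.75 on the log2 scale (1.68-fold, SE 0.18, edgeR adjusted p = 0.00349) and MTOR fell by 0.40 (SE 0.13, edgeR adjusted p = 0.0250). The count of 2 of 9 genes, 1 in each direction, compares with 27.5% of all genes, 14.0% higher and 13.4% lower. LAMTOR3 passed also when each of the 18 libraries was left out in turn (log2 fold change 0.64 to 0.85), and it was 0.81, 0.95 and 0.50 higher within replicate numbers 1, 2 and 3.

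MTOR encodes the kinase that is shared by mTORC1 and mTORC2. Its level was 65.7, 68.3 and 58.2 CPM in siCtrl#1 replicates 1, 2 and 3, and 56.6, 75.6 and 63.1 CPM in those of siCtrl#2. It was 41.2, 45.4 and 45.5 CPM with siTsg101#1 and 47.6, 53.5 and 58.1 CPM with siTsg101#2. It was 66.1, 71.7 and 56.1 CPM with siVps28#1 and 63.2, 67.8 and 64.0 CPM with siVps28#2. Of the 6 siTsg101 libraries 5 were below every control library and below every siVps28 library, and siTsg101#2 replicate 3 lay among them. In order of means, siCtrl#2, siVps28#2, siVps28#1 and siCtrl#1 overlapped from neighbour to neighbour, the libraries of siTsg101#2 were apart from those of siCtrl#1 above it, and those of siTsg101#1 were apart from siTsg101#2.

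The fall of MTOR upon Tsg101 depletion was 0.57, 0.47 and 0.18 on the log2 scale within replicate numbers 1, 2 and 3. The call was lost without siCtrl#1 replicate 1 (edgeR adjusted p = 0.0833), without siCtrl#1 replicate 2 (0.103), without siTsg101#2 replicate 1 (0.0590) and with no filter on low counts (0.0699). Relative to both nontargeting siRNAs MTOR fell by 0.41 (SE 0.11, edgeR adjusted p = 0.00521). There LAMTOR2 passed too, with a fall of 0.42 (SE 0.14, edgeR adjusted p = 0.0232), so that 3 of 9 genes passed beside 31.3% of all genes.

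With Vps28 depletion, as the mean of both siVps28 siRNAs relative to siCtrl#1, 0 of the 9 genes passed with edgeR or with DESeq2, and 0 had an unadjusted p under 0.05. Of all genes tested 16.3% passed. LAMTOR3 was 0.37 higher on the log2 scale (95% interval 0.00 to 0.74, edgeR adjusted p = 0.176), within replicate numbers 0.53, 0.37 and 0.22. MTOR differed by 0.02 (95% interval -0.25 to 0.29). RRAGA was 0.23 higher (95% interval -0.03 to 0.49, edgeR adjusted p = 0.236).

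Passing with 1 depletion and not with the other does not show that the depletions differed, so siTsg101 was compared with siVps28 directly. MTOR was lower upon Tsg101 than upon Vps28 depletion by 0.42 on the log2 scale (95% interval 0.20 to 0.64 lower, edgeR adjusted p = 0.0114). It was the only gene of the 9 to pass, beside 11.8% of all genes tested, and it passed also with each of the 18 libraries left out. Within replicate numbers 1, 2 and 3 the difference was -0.55, -0.50 and -0.22. LAMTOR3 was higher by 0.38 (SE 0.14, edgeR adjusted p = 0.0843) and passed when siTsg101#1 replicate 2 was left out (adjusted p = 0.0429). LAMTOR2 was 0.31 lower and RRAGA 0.22 lower, with edgeR adjusted p of 0.159 and 0.164. RPTOR did not differ beyond an interval of -0.26 to 0.26.

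**Figure D3:**
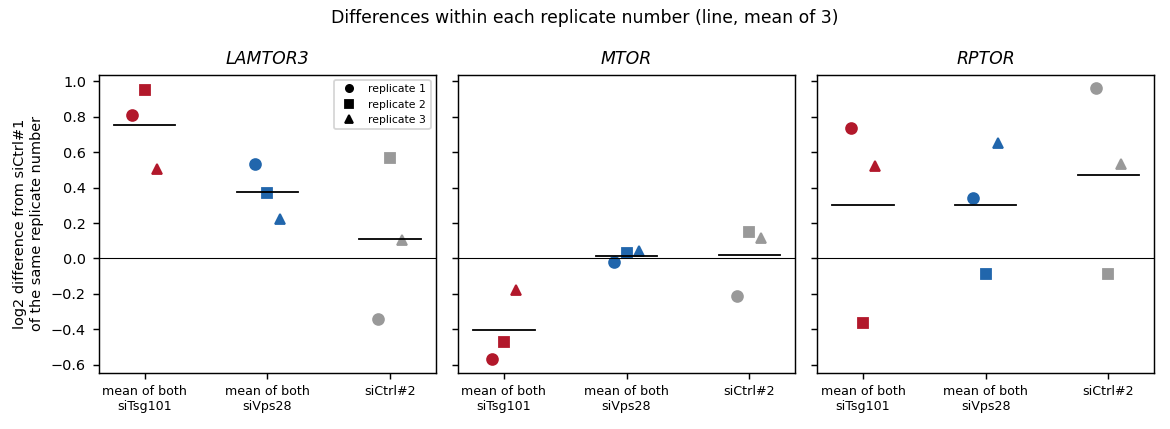
Log2 difference from siCtrl#1 of the same replicate number (vertical axis) for the mean of both siTsg101, the mean of both siVps28, and siCtrl#2 (horizontal axis), for LAMTOR3, MTOR and RPTOR. Each symbol is 1 replicate number and the line is the mean of 3; LAMTOR3 with siTsg101 lies above 0 and MTOR with siTsg101 below 0 in all 3, whereas RPTOR has both signs.

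The on-target siRNAs were also compared with siCtrl#1 separately, to see whether a change appeared with both siRNAs against a subunit. With siTsg101#1, LAMTOR3 rose by 0.72 (edgeR adjusted p = 0.0116) and MTOR fell by 0.53 (edgeR adjusted p = 0.0134), which is 2 of 9 genes beside 26.1% of all genes. With siTsg101#2, LAMTOR3 rose by 0.77 (edgeR adjusted p = 0.00842) and LAMTOR2 fell by 0.56 (edgeR adjusted p = 0.0453), which is 2 of 9 beside 20.7%, and MTOR was at -0.27 (edgeR adjusted p = 0.217). With siVps28#1, 0 of 9 genes passed beside 9.45% of all genes, and also 0 with DESeq2. LAMTOR3, at 0.54, was the only member with an unadjusted p under 0.05 there (edgeR adjusted p = 0.103). With siVps28#2, RRAGA rose by 0.43 (edgeR adjusted p = 0.0460), which is 1 of 9 genes beside 14.9% of all genes. No gene of the 9 passed with all 4 siRNAs, beside 2.89% of all genes that were higher and 1.89% that were lower with all 4.

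LAMTOR2, the partner of LAMTOR3 in the scaffold, was at 101, 86.8 and 82.4 CPM in siCtrl#1 replicates 1, 2 and 3, and at 114, 106 and 98.3 CPM in those of siCtrl#2. It was at 91.8, 101 and 70.2 CPM with siTsg101#1 and at 72.9, 43.5 and 66.7 CPM with siTsg101#2. It was at 74.5, 86.2 and 87.0 CPM with siVps28#1 and at 73.3, 101 and 122 CPM with siVps28#2. The 3 siTsg101#2 libraries were below all 6 controls, while the siVps28 groups and siTsg101#1 overlapped them. Relative to the mean of both nontargeting siRNAs the fall with siTsg101#2 was 0.68 (edgeR adjusted p = 0.00621). Relative to siCtrl#1 the call depended on single libraries, and it passed in 6 of the 18 fits with a library left out, those without siCtrl#2 replicate 1, siTsg101#1 replicate 2 or 3, siTsg101#2 replicate 1, or siVps28#2 replicate 1 or 3. Without siTsg101#2 replicate 2 the fall was 0.35 (edgeR adjusted p = 0.245). The difference between siTsg101#1 and siTsg101#2 was 0.51 (SE 0.20, edgeR unadjusted p = 0.0155, adjusted p = 0.115).

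RRAGA, which encodes the GTPase that binds Raptor when loaded with GTP, was at 68.2, 74.8 and 74.3 CPM in siCtrl#1 replicates 1, 2 and 3, and at 71.1, 82.6 and 76.8 CPM in those of siCtrl#2. It was at 88.6, 74.6 and 78.7 CPM with siTsg101#1 and at 66.1, 66.4 and 65.1 CPM with siTsg101#2. It was at 77.4, 71.4 and 73.6 CPM with siVps28#1 and at 107, 79.6 and 106 CPM with siVps28#2. Replicates 1 and 3 of siVps28#2 were above every control and replicate 2 was among them, and the 3 siTsg101#2 libraries were below every control. With siTsg101#2 RRAGA was at -0.14 relative to siCtrl#1 and did not pass (edgeR adjusted p = 0.541). The share of all genes with such a gap is not given here, for RRAGA or for LAMTOR2. The rise with siVps28#2 was 0.64, 0.09 and 0.51 within replicate numbers 1, 2 and 3. It passed in 4 of the 18 fits with a library left out, those without siCtrl#2 replicate 1, siTsg101#1 replicate 1, siTsg101#2 replicate 2 or siVps28#2 replicate 2. It did not pass relative to siCtrl#2 (0.34, edgeR adjusted p = 0.143) or with no filter on low counts (edgeR adjusted p = 0.121), and it passed relative to the mean of both nontargeting siRNAs (0.38, edgeR adjusted p = 0.0331). Between siVps28#1 and siVps28#2 the difference was -0.39 (SE 0.14, edgeR unadjusted p = 0.0115, adjusted p = 0.392). In the comparisons between siRNAs of the same target, 0 of the 9 genes passed with edgeR or DESeq2, beside 7.89% of all genes for siTsg101 and 0.488% for siVps28, and 1 gene in each, LAMTOR2 and RRAGA, had an unadjusted p under 0.05.

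LAMTOR1, LAMTOR4, LAMTOR5 and MLST8 passed in none of these comparisons, which share libraries and are not independent. LAMTOR1, the membrane anchor of the complex, ranged from 114 to 168 CPM in the control libraries and from 102 to 148 CPM in the on-target libraries. LAMTOR4 ranged from 44.2 to 72.7 CPM in controls and from 33.1 to 72.2 CPM in on-target libraries, and LAMTOR5, also called HBXIP, from 71.4 to 116 and from 69.3 to 144 CPM. MLST8 ranged from 49.3 to 65.0 CPM in controls and from 35.5 to 64.7 CPM in on-target libraries, of which 5 of 12 were below every control. In each of the 4 genes the groups overlapped from neighbour to neighbour in the order of their means. LAMTOR4 was at -0.54 with siVps28#2 (edgeR unadjusted p = 0.0372, adjusted p = 0.149).

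The 9 mRNAs did not vary together across the libraries. Pearson correlations of log2 CPM over the 18 libraries ran from -0.71, between LAMTOR2 and LAMTOR5, to 0.62, between LAMTOR4 and MLST8, with a median of 0.00 over 36 pairs, 18 of them positive. These libraries share groups, replicate numbers and normalization, so that the values describe them and carry no test. The genes most like LAMTOR3 by the same measure were TXNL1 (r = 0.89), SDCBP (0.89), PLBD1 (0.88), TNKS (0.88) and RBIS (0.88). SDCBP encodes syntenin, an adaptor in exosome formation. In the mean of the 4 siRNAs SDCBP, PLBD1 and TNKS were at 1.10, 0.72 and 0.91 on the log2 scale. TXNL1 and RBIS were at 0.31 and 0.27 and did not pass (edgeR adjusted p = 0.101 and 0.238). These values are a description only, because the genes were picked for following LAMTOR3 over the same libraries.

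TFEB and TFE3 bind the E-box CACGTG, most often within a longer palindrome known as the CLEAR motif. The 250 bases before the start site were therefore read for 7 of the 9 genes, those with an entry in the RefSeq promoter table (GRCh38.p14). Windows are shown for LAMTOR1 and LAMTOR4, the only 2 of the 7 that hold CACGTG, and for LAMTOR3 and MTOR, the genes that changed upon Tsg101 depletion. They are printed 5′ to 3′ on the strand of the gene, ending at the base before the start site, with CACGTG in capitals. The coordinates are chr11:72103298-72103547 (minus) for LAMTOR1, chr7:100148668-100148917 (plus) for LAMTOR4, chr4:99894428-99894677 (minus) for LAMTOR3, which has 2 start sites in the table, and chr1:11262552-11262801 (minus) for MTOR.
LAMTOR1: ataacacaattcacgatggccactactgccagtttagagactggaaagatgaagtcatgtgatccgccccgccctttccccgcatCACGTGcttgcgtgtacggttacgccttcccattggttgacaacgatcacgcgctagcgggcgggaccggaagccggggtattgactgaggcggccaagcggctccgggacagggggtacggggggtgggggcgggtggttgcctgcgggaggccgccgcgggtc
LAMTOR4: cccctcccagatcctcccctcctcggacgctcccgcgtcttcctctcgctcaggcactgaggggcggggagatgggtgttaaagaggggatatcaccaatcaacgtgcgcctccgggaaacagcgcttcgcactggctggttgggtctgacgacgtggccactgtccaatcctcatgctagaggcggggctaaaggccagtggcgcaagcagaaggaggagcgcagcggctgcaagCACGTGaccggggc
LAMTOR3: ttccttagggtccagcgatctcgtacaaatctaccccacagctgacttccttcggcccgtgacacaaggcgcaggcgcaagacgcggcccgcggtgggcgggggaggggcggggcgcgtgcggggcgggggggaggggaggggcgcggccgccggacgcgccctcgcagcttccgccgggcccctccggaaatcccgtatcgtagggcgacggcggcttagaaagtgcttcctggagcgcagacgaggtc
MTOR: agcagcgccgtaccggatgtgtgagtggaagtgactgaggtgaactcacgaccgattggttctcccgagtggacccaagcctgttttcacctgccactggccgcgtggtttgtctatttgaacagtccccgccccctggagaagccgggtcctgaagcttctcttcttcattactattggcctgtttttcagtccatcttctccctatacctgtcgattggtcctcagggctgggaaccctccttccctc

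The E-box began 165 bases before the start of LAMTOR1 and 14 bases before that of LAMTOR4. Searched on both strands, CACGTG was in 6.34% of all 35116 windows of the same length and TCACGTG in 3.31%, again including LAMTOR1 and LAMTOR4. The palindrome TCACGTGA was in 0.854% of windows, and in none of those of the 7 genes. The shorter motifs are contained in the longer. A match of letters is a description and not a binding site, and its absence says only that these letters are not in this window. LAMTOR1 and LAMTOR4 were at 0.04 and -0.33 in the mean of the 4 siRNAs, and neither passed. LAMTOR3, which rose, held no CACGTG in either of its windows.

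The rest of the pathway was read from a list of 49 further genes, of which 47 were on the panel and 43 were tested. In the mean of the 4 siRNAs 7 rose and 3 fell, 23.3% of the 43 against 23.7% of all genes tested, and their median log2 fold change was 0.08 against -0.01 for all genes. Relative to both nontargeting siRNAs 12 of 43 passed, against 28.8% of all genes. Among the Rag partners RRAGC, the partner of RagA, rose by 0.50 (SE 0.17, edgeR adjusted p = 0.0359), RRAGB was at 0.08 (edgeR adjusted p = 0.813), and RRAGD had no count in any of the 18 libraries. In the reference transcript of RRAGC, 44.2% of bases lie in 50-base stretches that an annotated lncRNA also holds, so the amplicon may also read that lncRNA. RHEB, the direct activator of mTORC1, was at 0.36 (edgeR adjusted p = 0.0664), and 26.2% of its bases lie in such stretches shared with pseudogenes and another locus.

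Among inhibitors of the pathway, DEPTOR, which binds mTOR, was lower by 1.12 (edgeR adjusted p = 0.0314). DEPTOR had only 135 counts in all 18 libraries together, little above the filter of 100. Relative to both nontargeting siRNAs it was at -0.63 and did not pass (edgeR adjusted p = 0.154). NPRL3 of the GATOR1 complex, which switches off RagA, rose by 0.39 (edgeR adjusted p = 0.0380). The amino acid sensors SESN2 and CASTOR1 rose by 0.91 (edgeR adjusted p = 0.00819) and 1.07 (edgeR adjusted p = 0.00308). However, 83.9% of the bases of CASTOR1 lie in such stretches shared with an overlapping annotated gene of the same strand. FNIP2, the partner of folliculin in the GTPase-activating complex for RagC and RagD, rose by 0.93 (edgeR adjusted p = 2.02e-05). None of the 3 TSC complex genes or the 5 GATOR2 genes passed. Of the mTORC2 genes, MAPKAP1 rose by 1.56 (edgeR adjusted p = 5.41e-07) and PRR5L was lower by 0.99 (edgeR adjusted p = 0.00133). TTI2, of the chaperone complex that folds mTOR, rose by 0.84 (edgeR adjusted p = 0.00464), and EIF4EBP1, an mTORC1 substrate that represses translation, fell by 0.63 (edgeR adjusted p = 0.00150).

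Several of these calls depended on the reference or on single libraries. Relative to siCtrl#2 in place of siCtrl#1, DEPTOR was at -0.14 and PRR5L at -0.05, and RRAGC (0.38, edgeR adjusted p = 0.137) and CASTOR1 (0.64, edgeR adjusted p = 0.0702) did not pass either. MAPKAP1 passed relative to siCtrl#2, at 0.59 (edgeR adjusted p = 0.00843) in place of 1.56. DEPTOR lost its call without any of the 3 siCtrl#1 libraries (edgeR adjusted p 0.0502 to 0.145). RRAGC did so as well, and also without siTsg101#1 replicate 3 or siVps28#1 replicate 3 (edgeR adjusted p 0.0503 to 0.171). NPRL3 lost it without siCtrl#1 replicate 1 or 2 or without replicate 3 of siTsg101#1, siTsg101#2 or siVps28#1 (edgeR adjusted p 0.0539 to 0.191), and with no filter on low counts (0.0512). SESN2 lost it without siCtrl#1 replicate 1 (0.52, edgeR adjusted p = 0.0551) and TTI2 without siCtrl#1 replicate 3 (0.69, edgeR adjusted p = 0.0551). MAPKAP1, CASTOR1, FNIP2, PRR5L and EIF4EBP1 passed with each of the 18 libraries left out. TFEB was at 0.53 (edgeR adjusted p = 0.0567). It was at 0.16 relative to siCtrl#2 (edgeR adjusted p = 0.620) and at 0.34 relative to both nontargeting siRNAs (edgeR adjusted p = 0.0869). TFEB passed with the replicate number as a block (0.54, edgeR adjusted p = 0.0398) and with at least 10 counts in every library (adjusted p = 0.0467). It passed too without siTsg101#1 replicate 2 (0.0453) and without siVps28#2 replicate 2 (0.0423). TFE3 was at 0.17 (edgeR adjusted p = 0.365).

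**Figure D4:**
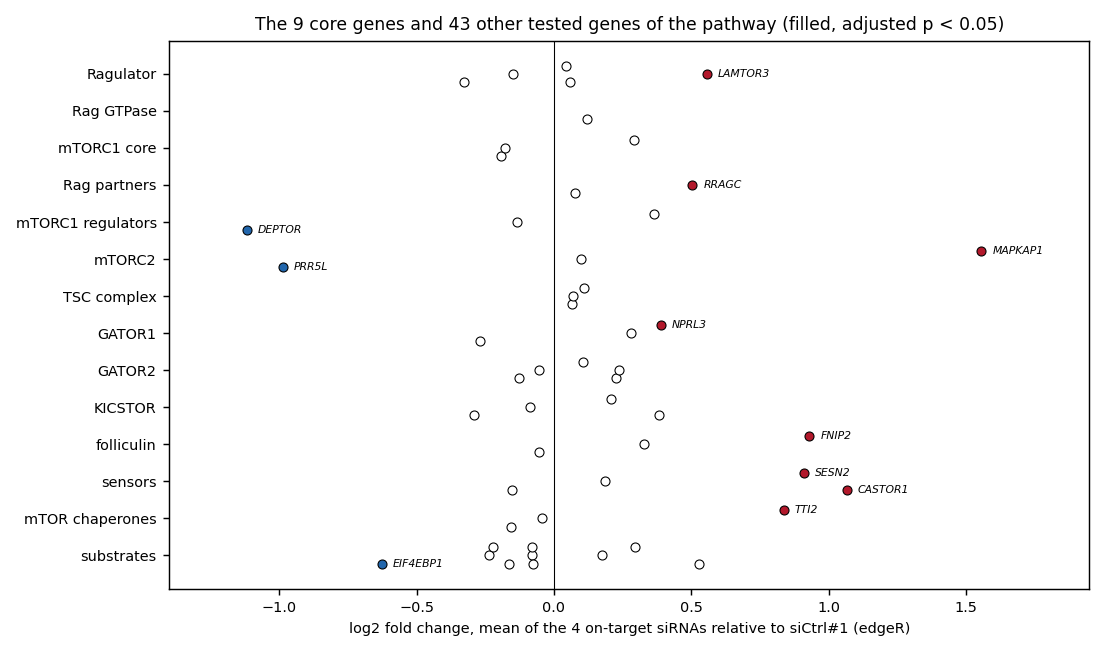
Log2 fold change in the mean of the 4 on-target siRNAs relative to siCtrl#1 (horizontal axis) of the 9 core genes and the 43 other genes tested, by their place in the pathway (rows, with points set at 3 heights within a row for legibility). Filled points passed at an adjusted p under 0.05, red for higher and blue for lower, and are named; 1 of the 9 core genes and 10 of the 43 others are filled.

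Between Tsg101 and Vps28 depletion 7 of the 43 pathway genes differed, 16.3% against 11.8% of all genes. TFEB was higher by 0.56 (SE 0.16, edgeR adjusted p = 0.0257) and TFE3 lower by 0.46 (SE 0.12, edgeR adjusted p = 0.00993) upon Tsg101 depletion. The chaperone genes TTI2 and TTI1 were higher by 0.73 (edgeR adjusted p = 0.00392) and 0.51 (edgeR adjusted p = 0.0202), whereas MTOR, whose product they help to fold, was lower in the same comparison. SESN1 was higher by 0.73 (edgeR adjusted p = 0.0190), and EIF4EBP1 was lower by 0.41 (edgeR adjusted p = 0.0352). TFE3 and TTI2 passed with each of the 18 libraries left out. TFEB did not pass without replicate 1 or 3 of siTsg101#1, replicate 1 of siTsg101#2, replicate 1 or 3 of siVps28#1, or replicate 1 or 2 of siVps28#2 (edgeR adjusted p 0.0505 to 0.0720). EIF4EBP1 did not pass without siTsg101#1 replicate 1, any library of siTsg101#2, or replicate 2 or 3 of siVps28#1 or of siVps28#2 (edgeR adjusted p 0.0508 to 0.115). SESN1 did not pass without siTsg101#2 replicate 1 (adjusted p = 0.0671) or siVps28#2 replicate 2 (adjusted p = 0.0509), nor TTI1 without siTsg101#1 replicate 1 (adjusted p = 0.0502), siTsg101#1 replicate 3 (0.0528) or siVps28#2 replicate 2 (0.0514). TTI2 shares 932 exonic bases with MAK16 on the other strand, and MAPKAP1, NPRL3, DEPTOR, SESN1 and TFEB also overlap a gene on the other strand.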

How the data were processed

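RNA of 18 RKO libraries was measured with the Ion AmpliSeq Transcriptome panel. The authors used the Torrent Mapping Alignment Program against the hg19 transcript reference of this panel, then HTSeq 0.6.0, and deposited raw counts per target, 1 list per library, without normalization. Reads that HTSeq assigned to no feature made up 48.2% to 49.1% of all reads of a library, and reads on genes 45.4% to 46.7%. All reads not assigned to a gene were left out of library sizes. The reads carry no molecular identifiers.

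From these counts, genes with over 100 counts in all were kept (10632) and 386 noncoding genes left out, as in the study's methods. Counts were normalized by TMM and tested with edgeR 4.0.16 (R 4.3.3), quasi-likelihood, with 6 groups in 1 fit and Benjamini-Hochberg adjustment; the study's methods name DESeq2, which was an alternative here (1.42.0). The calculation was tested on simulated data. No library duplicated another.

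The labels call the replicate number a batch, and each number holds 1 library of each siRNA. Deviations from group means correlated at 0.15 on average between libraries of 1 number (45 pairs) and at -0.07 between others (90 pairs). The block was an alternative, as were other references, filters, size factors and left-out libraries.

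The genes, the pathway list and the markers were chosen with earlier results of these data known. Named were the 9 genes, the pathway genes that passed in the mean of the 4 siRNAs or between depletions, with RRAGB, RRAGC, RRAGD, RHEB, TFEB and TFE3, and the 5 genes most like the member of smallest p; 1 pathway gene that the counts include is not reported here. Overlaps were read from GRCh37 (GENCODE), promoters from RefSeq GRCh38.p14; RRAGA and MLST8 had no entry.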

Additional observations from a re-analysis of the deposited data

Results flagged for a closer look

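Effects that differed between Tsg101 and Vps28 depletion in a test of the difference itself (edgeR, Benjamini-Hochberg adjusted p) were looked at again. MTOR differed by -0.42 (adjusted p = 0.0114), with 5 of 6 siTsg101 libraries below every siVps28 library. In the pathway list, TTI2 differed by 0.73 (adjusted p = 0.00392), SESN1 by 0.73 (adjusted p = 0.0190), TFEB by 0.56 (adjusted p = 0.0257), TTI1 by 0.51 (adjusted p = 0.0202), EIF4EBP1 by -0.41 (adjusted p = 0.0352) and TFE3 by -0.46 (adjusted p = 0.00993), all as log2 siTsg101 over siVps28. Groups of 3 libraries are too small for a test of outlying samples.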

How the results depend on the processing

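No value that passed changed direction under the alternatives run, but values that did not pass could change sign. Relative to siCtrl#2 in place of siCtrl#1, the mean of the 4 siRNAs was at -0.17 in place of 0.29 for RPTOR. In the same way LAMTOR1 was at -0.08 in place of 0.04, and LAMTOR4 at 0.01 in place of -0.33. Among the 9 genes, the count higher in the mean of the 4 on-target siRNAs went from 1 to 0 relative to siCtrl#2 and to 0 when 1.5-fold was also required, and lay between 0 and 1 with a library left out. The count lower upon Tsg101 depletion went from 1 to 0 with no filter on low counts and with 1.5-fold, and to 2 relative to siCtrl#2 or to both nontargeting siRNAs, where LAMTOR2 was added; with a library left out it lay between 0 and 1. Between the depletions, the count lower went from 1 to 0 with 1.5-fold and the count higher, 0, lay between 0 and 1 with a library left out. Over the 4 siRNAs singly, 3 calls were higher (2 to 3 with a library left out) and 2 lower (1 to 2), the latter 0 with 1.5-fold. In the pathway list, 7 were higher (4 to 9) and 3 lower (2 to 3) in the mean of the 4, and 5 higher (2 to 6) and 2 lower (1 to 3) between the depletions, where 1.5-fold left 3 and 0. The cause of these changes was not tested, other than that a fold threshold removes calls below it. With the replicate block, none of 30 values of the 9 genes changed its call, LAMTOR3 in the mean of the 4 being at 0.56 (edgeR adjusted p = 0.0131), and of the other 34 single-gene values TFEB alone did. DESeq2, RLE size factors and noncoding genes kept changed none of these counts by more than 1.5 times. TSG101 could not be fitted with at least 10 counts in every library, since it had 8 counts in siTsg101#1 replicate 1. Depth and 3 replicates gave standard errors of 0.11 to 0.19 in the mean of the 4.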
